A study of Mus musculus with 6 samples.

Results

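Wnt ligands, their receptors and the proteins that tune them outside the cell were followed in intestinal villi of newborn mice that lack *Trpm7*, a channel for divalent cations fused to a protein kinase, in the gut epithelium. Members were the genes with a single-symbol probe set whose symbol begins with Wnt, Fzd, Sfrp, Dkk or Rspo and a digit, together with *Lrp5*, *Lrp6*, *Wif1*, *Tcf7l1*, *Tcf7l2*, *Lef1*, *Porcn*, *Ctnnb1* and *Apc*. This gave 51 of the 19938 genes on the array, 19 ligands, 12 receptors, 4 R-spondins, 9 secreted inhibitors, 3 genes of ligand acylation and the beta-catenin core, 3 TCF/LEF factors and the non-coding transcript *Fzd10os*, which the symbol pattern takes in. Where a gene had several probe sets, that of the highest mean signal stood for it, and only *Wnt4* had a further probe set. *Tcf7* was not analysed here. The mutant group, *Trpm7*-intestine KO, was *Trpm7 fl/fl;Villin1-Cre* at P5, or 5 days of age, and the control group was *Trpm7 fl/fl* at the same age, 3 replicates each, littermates on a background labelled C57BL/6. The floxed *Trpm7* allele is thus carried by both groups, and the study's methods give the floxed line and the Cre line different strains of origin. The *Villin1* promoter drives Cre in enterocytes along the whole intestine, so mesenchymal, endothelial and immune cells that come off with the villi keep *Trpm7*.

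The log2 signals of the 6 arrays had medians of 6.24 to 6.30. *Trpm7* itself was at 8.03, 7.79 and 7.88 in mutant villi and at 9.11, 8.96 and 9.03 in control villi, a fall by 1.13 on the log2 scale (adjusted p = 0.00019), and the sources used here do not say where its probe set lies relative to the deleted sequence. By qPCR of villi at P5, the study found almost no WT *Trpm7* transcript in mutants. Epithelial markers were present on all arrays, since the linear signals of 8 of them summed to 57296 to 59675 in mutant villi and 49673 to 50550 in control villi. Replicates were taken as labelled. *Xist* was at 10.18, 4.76 and 5.26 in mutant villi and 10.48, 9.82 and 9.66 in control villi. The Y-linked *Eif2s3y* was at 3.56, 8.38 and 8.50 in mutant villi and 3.63, 7.71 and 7.84 in control villi. Sex make-up was thus not the same in both groups. Control replicate 1 was the only control array with a low Y-linked signal. *Xist* was detected beside Y-linked transcripts in control replicates 2 and 3, so a replicate may be more than 1 pup. P-values measure the spread between these arrays. With 3 arrays a group, the smallest two-sided p of an exact permutation test is 0.1, so calls rest on limma across all probe sets.

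Wnt proteins are secreted ligands to which *Porcn* attaches a lipid. They bind a Frizzled receptor together with *Lrp5* or *Lrp6*, which stalls the destruction complex of *Apc*, Axin, GSK3 and casein kinase, and beta-catenin then reaches the nucleus and works with TCF/LEF factors on target genes. R-spondins strengthen the signal by keeping *Rnf43* and *Znrf3* from clearing Frizzled from the surface, whereas Sfrp proteins and *Wif1* bind ligands and Dkk proteins act on *Lrp5* and *Lrp6*. In the gut the pathway is known for sustaining crypt stem cells, with most ligands and R-spondins made by the mesenchyme under the epithelium.

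Few of these genes passed the test for a change. *Tcf7l2*, *Lef1* and *Wnt2b* were higher in mutant villi and *Fzd4* was lower, by 0.39 to 0.95 in size on the log2 scale, and the other 47 members did not pass the test. A gene is called here at an adjusted p of 0.05 or less from limma, adjusted by Benjamini-Hochberg across the 30177 probe sets. The 4 calls are 7.84% of the members, while 16.9% of all probe sets were called. By direction, 3 of 51 members were higher against 8.04% of all probe sets, and 1 was lower against 8.82%. None of the members was both called and changed at least 2-fold, compared with 2.53% of all probe sets. At an unadjusted p under 0.05 there were 7 of 51 members, the 4 called ones and *Fzd5*, *Lrp6* and *Wnt9a*, against 29.3% of all probe sets.

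The members' changes lay between −0.95 and 0.76 with a median of 0.03, and the median over all genes was 0.00. Mutant and control values were fully apart in 11 members (21.6%), 7 higher and 4 lower, and the share over all probe sets was 34.5%. Many members had low signals, and whether these stood above background was not tested. Of the 30 members with a mean under 6.28, the median of all probe set means, 1 was called (3.33%, against 5.70% of all probe sets under that level). Of the 21 members above it, 3 were called (14.3%, against 28.0% of all probe sets above it). The spread between replicates was small, with a median pooled SD of 0.12 over the members.

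**Figure D1:**
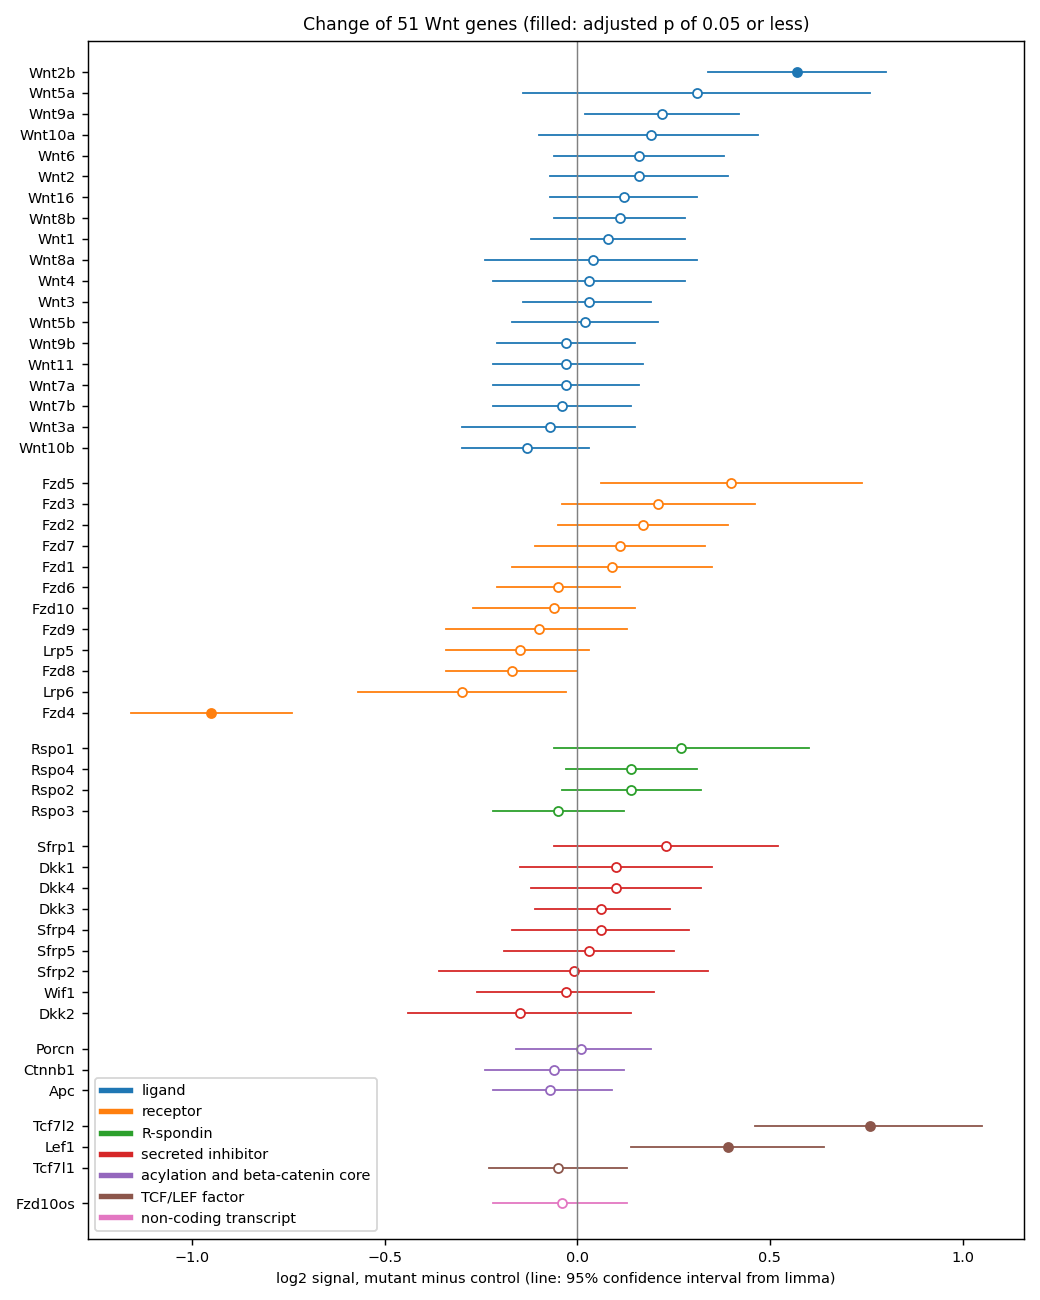
Change of each of the 51 Wnt genes, mutant minus control log2 signal, with its 95% confidence interval from limma, ordered by role and then by size; filled points have an adjusted p of 0.05 or less. *Fzd4* stands alone at −0.95, *Tcf7l2* (0.76), *Wnt2b* (0.57) and *Lef1* (0.39) lie on the other side, and most of the remaining intervals cross 0.

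The start regions of *Tcf7l2* and *Wnt2b*, which were higher, and of *Fzd4*, which was lower, are shown. They were chosen because these 3 members were called in every alternative that refitted the model. Each stretch runs from 100 bases before to 25 bases after a RefSeq start site in GRCm38.p6, 5′ to 3′ on the strand of the gene, at chr19:55741710-55741834 (plus strand, the first of 2 start sites) for *Tcf7l2*, chr3:104961685-104961809 (minus strand) for *Wnt2b* and chr7:89404266-89404390 (plus strand) for *Fzd4*. Capitals mark matches to the core of the antioxidant response element, TGACNNNGC on either strand, with N any base.
Tcf7l2: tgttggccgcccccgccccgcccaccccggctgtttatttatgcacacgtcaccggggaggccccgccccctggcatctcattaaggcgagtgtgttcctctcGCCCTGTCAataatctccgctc
Wnt2b: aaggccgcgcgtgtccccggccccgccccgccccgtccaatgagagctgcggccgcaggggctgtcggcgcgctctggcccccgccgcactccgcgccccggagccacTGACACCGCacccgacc
Fzd4: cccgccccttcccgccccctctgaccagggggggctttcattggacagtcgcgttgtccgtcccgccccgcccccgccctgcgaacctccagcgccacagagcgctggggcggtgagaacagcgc
The match begins at base 4 of the transcribed part of *Tcf7l2*, where it lies on the opposite strand, and at base 9 of that of *Wnt2b*. Over the full windows of 250 bases before to 50 after a start, which RefSeq gave for 32 members (40 windows), the antioxidant core was found in 9 windows (22.5%) and in 12.4% of all 32851 windows. Its 9 members were *Ctnnb1*, *Fzd5*, *Fzd9*, *Tcf7l1*, *Tcf7l2*, *Wnt11*, *Wnt16*, *Wnt2b* and *Wnt5b*, 2 of them called and 7 not. The TCF/LEF core CTTTGAT, on either strand, was found in 2 member windows, those of *Wnt11* and *Wnt5b*, and in 3.73% of all windows. Windows of *Lef1* and *Fzd4*, and that of the second start site of *Tcf7l2*, held neither motif. A match describes these letters and is not a measured site.

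Among the TCF/LEF factors, which carry beta-catenin to DNA, *Tcf7l2* and *Lef1* were higher in mutant villi and *Tcf7l1* did not pass the test. *Tcf7l2*, the main TCF of the intestinal epithelium, had log2 signals of 9.29, 9.13 and 8.79 in mutant villi and 8.27, 8.39 and 8.28 in control villi. All mutant values lay above all control values, and the mutant values also spread more widely. Its mean was 9.07 ± 0.26 in mutant villi and 8.31 ± 0.07 in control villi (SD, n = 3 each), a 1.69-fold rise (0.76 on the log2 scale, 95% confidence interval 0.46 to 1.05, adjusted p = 0.00567).

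*Lef1*, a factor more usual in progenitor and immune cells, had a weak signal of 5.70, 5.80 and 5.61 in mutant villi and 5.52, 5.24 and 5.18 in control villi. The groups did not overlap, and control replicate 1 came closest to the mutant arrays. The rise was 1.31-fold (0.39 on the log2 scale, interval 0.14 to 0.64, adjusted p = 0.0417). This call was lost when mutant replicate 1, 2 or 3 or control replicate 2 or 3 was left out (adjusted p = 0.101, 0.138, 0.0562, 0.129 and 0.131), and held without control replicate 1 (0.0137). Immune cell markers, given beside it because *Lef1* is also a lymphocyte gene, were called for 2 of 6 genes, the neutrophil genes *S100a8* and *S100a9*, while the T-cell marker *Cd3e* was at 6.12, 6.34 and 6.24 in mutant villi and 6.27, 6.18 and 6.22 in control villi. The summed linear signal of the 6 was 1975 to 3511 in mutant villi and 1496 to 1988 in control villi, and its part in the result was not tested. In such mixed samples, more cells of a type and more RNA per cell cannot be told apart. *Tcf7l1*, a factor that acts mostly as a repressor, was at 6.13, 6.18 and 6.12 in mutant villi and 6.24, 6.09 and 6.25 in control villi, a difference of −0.05 with an interval of −0.23 to 0.13.

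**Figure D2:**
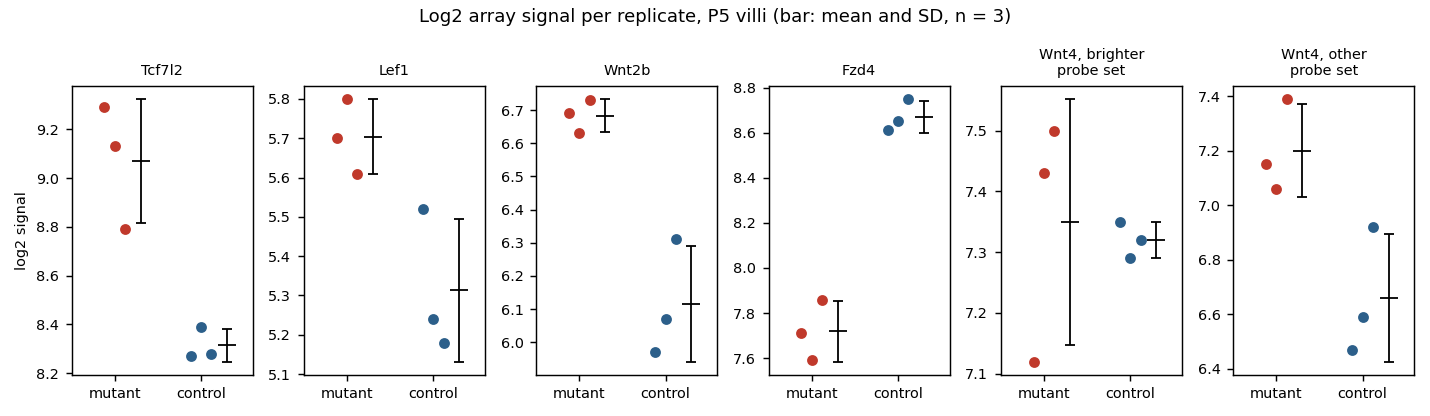
Log2 array signal of the 4 called members and of both *Wnt4* probe sets, each with its own axis; points are the 3 mutant and 3 control replicates, bars the mean and SD. Mutant and control points are apart for *Tcf7l2*, *Lef1*, *Wnt2b* and *Fzd4* and for the second probe set of *Wnt4*, and overlap for its brighter probe set.

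Of the 19 Wnt ligands, *Wnt2b* was higher in mutant villi and the other 18 did not pass the test. *Wnt2b* is a ligand of the beta-catenin branch known from the intestinal mesenchyme. It had log2 signals of 6.69, 6.63 and 6.73 in mutant villi and 5.97, 6.07 and 6.31 in control villi. The mutant values were tightly grouped above the highest control value, that of replicate 3. The means were 6.68 ± 0.05 and 6.12 ± 0.17 in mutant and control villi (SD, n = 3 each), a 1.48-fold rise (0.57 on the log2 scale, interval 0.34 to 0.80, adjusted p = 0.00692).

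Markers of the mesenchyme are given beside *Wnt2b*, a ligand known from that tissue. Of 10 genes of fibroblasts and subepithelial mesenchyme, 3 were higher and 7 did not pass the test, with a median change of 0.19 beside 0.00 over all genes. The proteoglycan gene *Dcn* was higher by 1.03, the growth factor receptor *Pdgfra* by 0.56 and the filament gene *Vim* by 0.34, while *Foxl1*, which marks the ligand-rich telocytes, changed by −0.03 (adjusted p = 0.889). The linear signals of the 10 summed to 3296 to 4057 in mutant villi and 2467 to 3029 in control villi, with the lowest control sum in replicate 1, and none of the 6 smooth muscle markers was called (sums of 1149 to 1497 in mutant and 1072 to 1437 in control villi). Their part in the *Wnt2b* result was not tested.

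**Figure D3:**
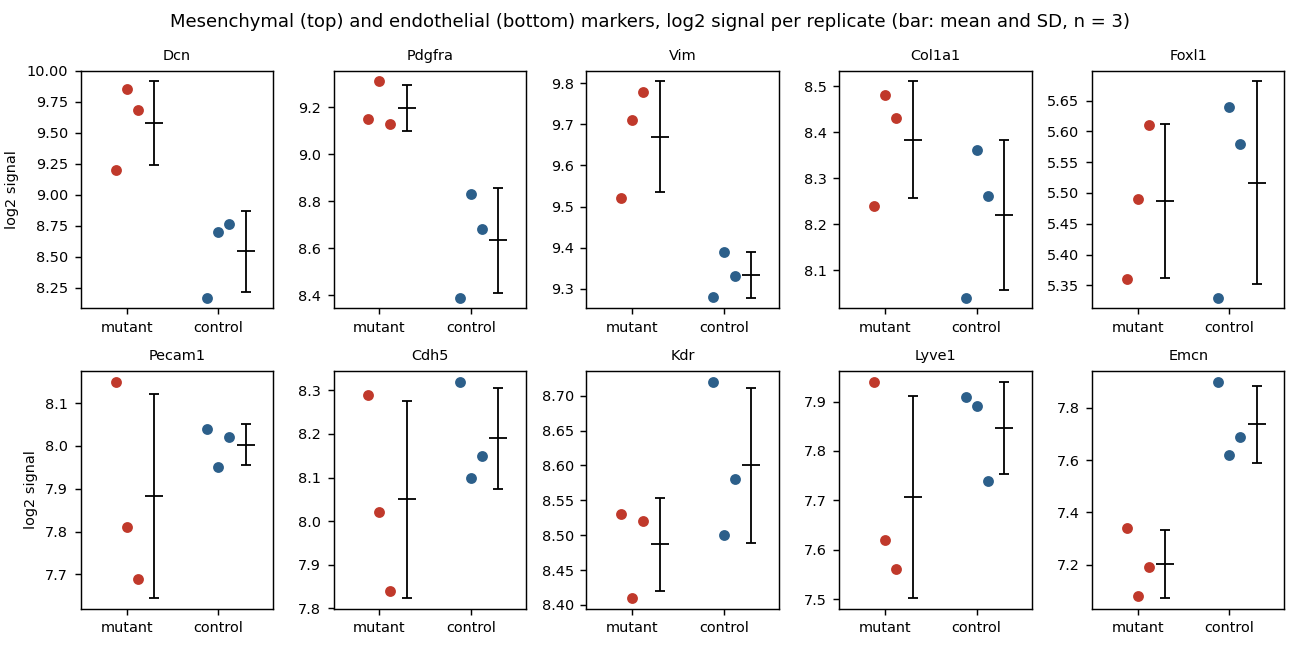
Log2 signal of 5 mesenchymal markers (top) and 5 endothelial markers (bottom), each with its own axis; points are the 3 mutant and 3 control replicates, bars the mean and SD. *Dcn*, *Pdgfra* and *Vim* are higher in mutant villi with no overlap, and *Col1a1* and *Foxl1* overlap. The top row holds all 3 called genes of the 10 mesenchymal markers, but only *Col1a1* and *Foxl1* of the 7 not called. Of the endothelial markers *Emcn* alone separates the groups, lower in mutant villi.

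*Wnt4* gave different answers from its 2 probe sets. The brighter set read 7.12, 7.43 and 7.50 in mutant villi and 7.35, 7.29 and 7.32 in control villi, a difference of 0.03 (adjusted p = 0.889). The other read 7.15, 7.06 and 7.39 in mutant villi and 6.47, 6.59 and 6.92 in control villi, 1.45-fold higher (0.54 on the log2 scale, interval 0.23 to 0.85, adjusted p = 0.0303). The second call held without control replicate 3 (adjusted p = 0.0158) and was lost without any other array (0.0501 to 0.0957). The sources used here do not say which part of *Wnt4* each probe set reads.

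*Wnt9a* had 6.58, 6.58 and 6.46 in mutant villi and 6.28, 6.45 and 6.22 in control villi, apart by a narrow margin (0.22, interval 0.02 to 0.42, adjusted p = 0.129). *Wnt5a*, a ligand of the branch that works without beta-catenin, had 6.30, 6.54 and 6.64 in mutant villi and 5.71, 6.36 and 6.47 in control villi. Its difference of 0.31 (adjusted p = 0.338) came to 0.08 without control replicate 1, the lowest of the 6. *Wnt10a* read 6.47, 6.67 and 6.54 in mutant villi and 6.41, 6.59 and 6.12 in control villi (0.19, interval −0.10 to 0.47, adjusted p = 0.375). *Wnt9b* read 6.49, 6.34 and 6.44 in mutant villi and 6.54, 6.44 and 6.38 in control villi (−0.03, interval −0.21 to 0.15, adjusted p = 0.848).

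The remaining 13 ligands differed by −0.13 to 0.16. *Wnt3*, the ligand that Paneth cells supply to the stem cell niche, was among them, at 5.37, 5.41 and 5.40 in mutant villi and 5.43, 5.36 and 5.31 in control villi (0.03, interval −0.14 to 0.19). So was *Wnt10b*, whose mutant values of 5.78, 5.82 and 5.74 lay just under the control values of 5.95, 5.93 and 5.86 (adjusted p = 0.257). These are weak signals, since 12 of the 19 ligands had a mean under the median of all probe sets.

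Of the 12 receptors and co-receptors, *Fzd4* was lower in mutant villi and the other 11 did not pass the test. *Fzd4* binds Wnt ligands and also norrin, and is known for its part in vessel growth. It had log2 signals of 7.71, 7.59 and 7.86 in mutant villi and 8.61, 8.65 and 8.75 in control villi. The gap between the highest mutant and the lowest control array was wider than the spread within either group. The means were 7.72 ± 0.14 in mutant villi and 8.67 ± 0.07 in control villi (SD, n = 3 each), so that *Fzd4* was 1.93-fold lower (−0.95 on the log2 scale, interval −1.16 to −0.74, adjusted p = 0.000465). It was the member with the largest change in size among the 51.

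Endothelial markers are given beside *Fzd4* because vessels also use this receptor. Of 5, *Emcn* was lower by 0.53 on the log2 scale (adjusted p = 0.0108) and *Pecam1*, *Cdh5*, *Kdr* and *Lyve1* did not pass the test, with differences of −0.14 to −0.11. That is 20.0% called, and all 5 lay above the median signal, where 28.0% of all probe sets were called. The summed linear signal of these 5 markers was 1374, 1156 and 1137 in mutant villi and 1484, 1318 and 1347 in control villi, so the groups overlapped. The part of vessel cells in the fall of *Fzd4* was not tested. *Ndp*, the gene of norrin, had a weak signal that did not pass the test (3.59, 3.73 and 3.56 in mutant villi and 3.75, 3.93 and 4.12 in control villi, adjusted p = 0.0952).

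*Fzd5*, a Frizzled of the gut epithelium, pointed the other way, with 8.01, 7.80 and 7.87 in mutant villi and 7.14, 7.64 and 7.69 in control villi. The groups did not overlap, but control replicate 1 stood well below the other control arrays. The difference of 0.40 (interval 0.06 to 0.74) did not pass the test (adjusted p = 0.110) and came to 0.23 without that array. Between *Fzd4* and *Fzd5* the difference in response was not tested.

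The co-receptors *Lrp5* and *Lrp6*, which pair with Frizzled to bind a ligand, had lower means in mutant villi, though neither passed the test. *Lrp6* read 8.67, 8.49 and 8.86 in mutant villi and 8.81, 9.06 and 9.06 in control villi (−0.30, interval −0.57 to −0.03, adjusted p = 0.126). *Lrp5* read 9.23, 9.25 and 9.43 in mutant villi and 9.50, 9.42 and 9.45 in control villi (−0.15, interval −0.34 to 0.03, adjusted p = 0.260). In both, mutant replicate 3 lay within the control values. *Fzd8* was lower in all 3 mutant arrays by a small step (6.72, 6.85 and 6.86 in mutant villi against 6.94, 7.01 and 6.99 in control villi, adjusted p = 0.175). The other 7 Frizzled genes, *Fzd1*, *Fzd2*, *Fzd3*, *Fzd6*, *Fzd7*, *Fzd9* and *Fzd10*, differed by −0.10 to 0.21. *Fzd10os*, annotated as a long non-coding RNA, differed by −0.04 (adjusted p = 0.761).

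None of the 4 R-spondins, the ligands of Lgr receptors, passed the test. *Rspo1* had 6.80, 7.05 and 7.00 in mutant villi and 6.36, 6.89 and 6.79 in control villi (0.27, interval −0.06 to 0.60, adjusted p = 0.262). *Rspo2* read 4.94, 5.03 and 4.90 in mutant villi and 4.73, 4.86 and 4.86 in control villi (0.14, adjusted p = 0.280). *Rspo4* read 5.63, 5.65 and 5.58 in mutant villi and 5.39, 5.50 and 5.54 in control villi (0.14, adjusted p = 0.250). In *Rspo2* and *Rspo4* the groups did not overlap, at signals under the median of all probe sets. *Rspo3*, the R-spondin best known from the crypt base, changed by −0.05 (interval −0.22 to 0.12), and control replicate 1 was the lowest control array for all 4.

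The 9 secreted inhibitors did not pass the test either, with differences of −0.15 to 0.23, and in each of them the groups overlapped. *Sfrp1*, a decoy that binds Wnt proteins, had 6.99, 7.17 and 6.81 in mutant villi and 6.55, 6.90 and 6.83 in control villi (0.23, interval −0.06 to 0.52, adjusted p = 0.271). *Sfrp2* had 6.17, 6.52 and 6.41 in mutant villi and 6.06, 6.54 and 6.53 in control villi, a difference of −0.01 with a wide interval of −0.36 to 0.34. *Dkk3*, the divergent member of the Dickkopf family, had 5.85, 6.02 and 5.88 in mutant villi and 5.82, 5.89 and 5.85 in control villi (0.06, interval −0.11 to 0.24). The 4 Dkk genes lay between −0.15 and 0.10, and *Wif1*, a further ligand-binding inhibitor, was at −0.03. Apart from *Sfrp1* and *Sfrp2*, the inhibitors had signals under the median of all probe sets.

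At the centre of the pathway, *Ctnnb1*, the gene of beta-catenin, had a strong signal of 12.45, 12.28 and 12.47 in mutant villi and 12.45, 12.46 and 12.47 in control villi. Mutant replicate 2 alone lay apart, and the difference of −0.06 had an interval of −0.24 to 0.12 (adjusted p = 0.669). *Apc*, the scaffold of the destruction complex, read 9.26, 9.27 and 9.31 in mutant villi and 9.36, 9.34 and 9.34 in control villi, lower in every mutant array by a step too small to pass the test (−0.07, interval −0.22 to 0.09, adjusted p = 0.566). *Porcn*, the acyltransferase without which Wnt proteins are not secreted, read 6.10, 5.93 and 5.98 in mutant villi and 6.02, 5.97 and 5.98 in control villi (0.01, interval −0.16 to 0.19, adjusted p = 0.932). The intervals of these 3 leave room for shifts of up to 0.24 in size on the log2 scale. Array signals say nothing of the stability of the beta-catenin protein, which is how the pathway mainly sets its level.

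Control replicate 1 was the lowest control array for 25 of the 51 members and the highest for 15, and among the 21 members above the median signal it was the lowest for 14. Over all 30177 probe sets it was the lowest control array for 11040 and the highest for 10823, and for the 15095 above the median signal it was the lowest for 6541 and the highest for 5333. *Wnt5a*, *Fzd5*, *Rspo1* and *Sfrp1* had their lowest control value in this array, and their differences shrank to 0.08, 0.23, 0.11 and 0.12 without that array. *Tcf7l2* and *Fzd4* hardly depended on it, at 0.73 and −0.98.

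**Figure D4:**
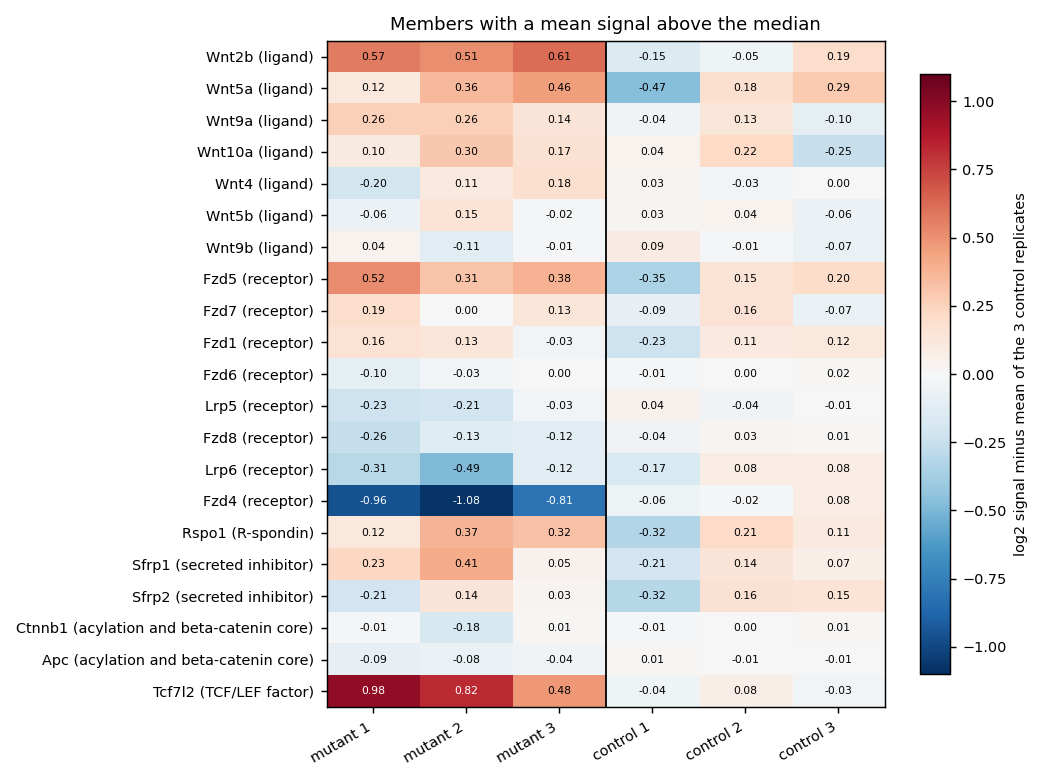
Log2 signal of each array minus the mean of the 3 control replicates, for the 21 members with a mean above the median of all probe sets, mutant arrays to the left of the line. *Tcf7l2* and *Wnt2b* are above 0 and *Fzd4* below 0 in all 3 mutant arrays, and control replicate 1 is the lowest control array in 14 of the 21 rows.

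Genes around the members were taken from 6 lists of the wider pathway, 61 genes in all outside the members, of which 8 were higher, 5 were lower and 48 did not pass the test (21.3% called). Their median change was 0.06, and 43 of them lay above the median signal, where calls were more frequent over all probe sets (28.0%). For the turnover of ligands and receptors at the surface, 1 of 7 genes was higher and 1 was lower (28.6% called), and 5 lay above the median signal. *Rnf43*, the ubiquitin ligase that clears Frizzled, had 9.02, 8.73 and 8.63 in mutant villi and 8.05, 8.34 and 8.36 in control villi (0.54, adjusted p = 0.0236), and this call was lost without mutant replicate 1 or 2 or control replicate 1 (adjusted p = 0.0600 to 0.0618). *Notum*, the enzyme that strips the lipid from Wnt proteins, had 5.93, 6.11 and 6.09 in mutant villi and 6.52, 6.66 and 6.75 in control villi (−0.60, adjusted p = 0.00359). *Wls*, the carrier of Wnt proteins to the surface, had a difference of −0.30 that did not pass the test (adjusted p = 0.147).

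Among 10 other secreted or surface modulators, 2 were lower and 8 did not pass the test (20.0% called, against 16.9% of all probe sets). *Apcdd1*, a membrane-bound inhibitor of Wnt signalling, had 8.13, 8.83 and 8.34 in mutant villi and 9.49, 9.52 and 9.51 in control villi. It was 2.10-fold lower (−1.07 on the log2 scale, adjusted p = 0.00357), with no overlap and a wider spread among mutant arrays. *Kremen1*, a receptor for Dkk proteins, was lower by 0.35 on the log2 scale (adjusted p = 0.0198), a call that held only without mutant replicate 3 or control replicate 3 when arrays were left out in turn (highest adjusted p = 0.0706). None of 9 co-receptors and planar polarity genes passed the test.

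In the destruction complex and its Dishevelled partners, 2 of 14 genes were higher and 1 was lower (21.4% called). All 14 lay above the median signal, where 28.0% of all probe sets were called. *Axin2*, a scaffold of that complex and a feedback target, had 9.26, 9.02 and 8.85 in mutant villi and 8.29, 8.38 and 8.36 in control villi (1.62-fold, 0.70 on the log2 scale, adjusted p = 0.00410). *Csnk1a1*, a kinase of the complex, was higher by 0.32 (adjusted p = 0.0222) and *Btrc*, which marks phosphorylated beta-catenin for decay, was lower by 0.39 on the log2 scale (adjusted p = 0.0161). Each of the last pair lost its call in 4 of the 6 fits that left out an array, *Csnk1a1* without mutant replicate 1 or 2 or control replicate 1 or 2 (adjusted p = 0.0552 to 0.0744) and *Btrc* without mutant replicate 1 or 2 or control replicate 2 or 3 (0.0518 to 0.0637). Of 10 co-activators and co-repressors, *Tle3*, a Groucho protein that silences TCF targets, was lower by 0.63 on the log2 scale (adjusted p = 0.00730) and the other 9 did not pass the test.

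Target genes of the pathway in the gut epithelium were higher more often than lower. Of the 16 measured of 17 listed, 7 were higher, 1 was lower and 8 did not pass the test. Over all probe sets, 8.04% were higher and 8.82% were lower, and 28.0% of those above the median signal were called. Of the targets, 10 lay above that level. Their median change was 0.28 beside 0.00 over all genes. The list was chosen with earlier results of these data known, so these counts describe the listed genes and their excess was not tested. The number of targets higher was 5 without mutant replicate 1 or 2, 6 without any other array and 9 with the Y-linked signal as a covariate. *Myc*, a driver of cell growth, had 9.61, 9.50 and 9.36 in mutant villi and 6.91, 7.70 and 7.62 in control villi, a 4.23-fold rise (adjusted p = 0.000454). *Cd44*, a surface receptor of crypt cells, had 8.58, 8.55 and 8.55 in mutant villi and 6.63, 6.83 and 6.88 in control villi, a 3.43-fold rise (adjusted p = 3.14e-05). *Sox9*, a factor of crypt and Paneth cells, had 9.39, 9.31 and 8.89 in mutant villi and 7.52, 7.91 and 7.92 in control villi, a 2.66-fold rise (adjusted p = 0.000942). In all 3, the lowest mutant array was well above the highest control array.

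Changes of the other targets were smaller. Besides *Axin2* and *Rnf43*, *Ascl2*, a stem cell factor, was higher by 0.63 (adjusted p = 0.00386) and *Sp5* by 0.28 (adjusted p = 0.0392), and the *Sp5* call was lost without any array but control replicate 1 (adjusted p = 0.0677 to 0.133), and with quantile normalization (0.0635) or arrays centred on the median (0.0784). *Notum* was the target that was lower. *Ccnd1* had 8.40, 8.59 and 8.56 in mutant villi and 7.76, 8.18 and 8.24 in control villi and just missed the threshold (0.46, adjusted p = 0.0517). *Lgr5*, the stem cell marker and R-spondin receptor, had 6.24, 6.33 and 6.48 in mutant villi and 5.60, 6.54 and 6.50 in control villi (0.14, adjusted p = 0.752), so its control spread was wider than its difference.

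Of 5 markers of proliferating crypt cells, the cycle genes *Mki67*, *Ccna2* and *Plk1* were higher. *Top2a* (0.69, adjusted p = 0.0732) and *Olfm4* (−0.95, adjusted p = 0.184) did not pass the test. *Mki67* was at 9.38, 9.21 and 9.49 in mutant villi and 7.79, 8.72 and 8.81 in control villi (1.89-fold, adjusted p = 0.0395). The study, which called array genes at a 2-fold change, reported *Mki67* as unchanged in P5 villi by qPCR and array. The linear signals of the 5 summed to 2368, 2503 and 2754 in mutant villi and 1247, 2813 and 2840 in control villi. Control replicates 2 and 3 thus lay above every mutant sum and control replicate 1 far below. *Olfm4*, the brightest of the 5 in every control array (9.11, 10.61 and 10.66), weighs most in the control sums. For *Mki67*, *Top2a*, *Ccna2* and *Plk1* all mutant values lay above all control values. Of 8 epithelial markers, *Epcam*, *Cdh1*, *Krt8* and *Krt20* were higher, *Cdx2* was lower and 3 did not pass the test. Their part in the changes of the target genes and of *Tcf7l2* was not tested.

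**Figure D5:**
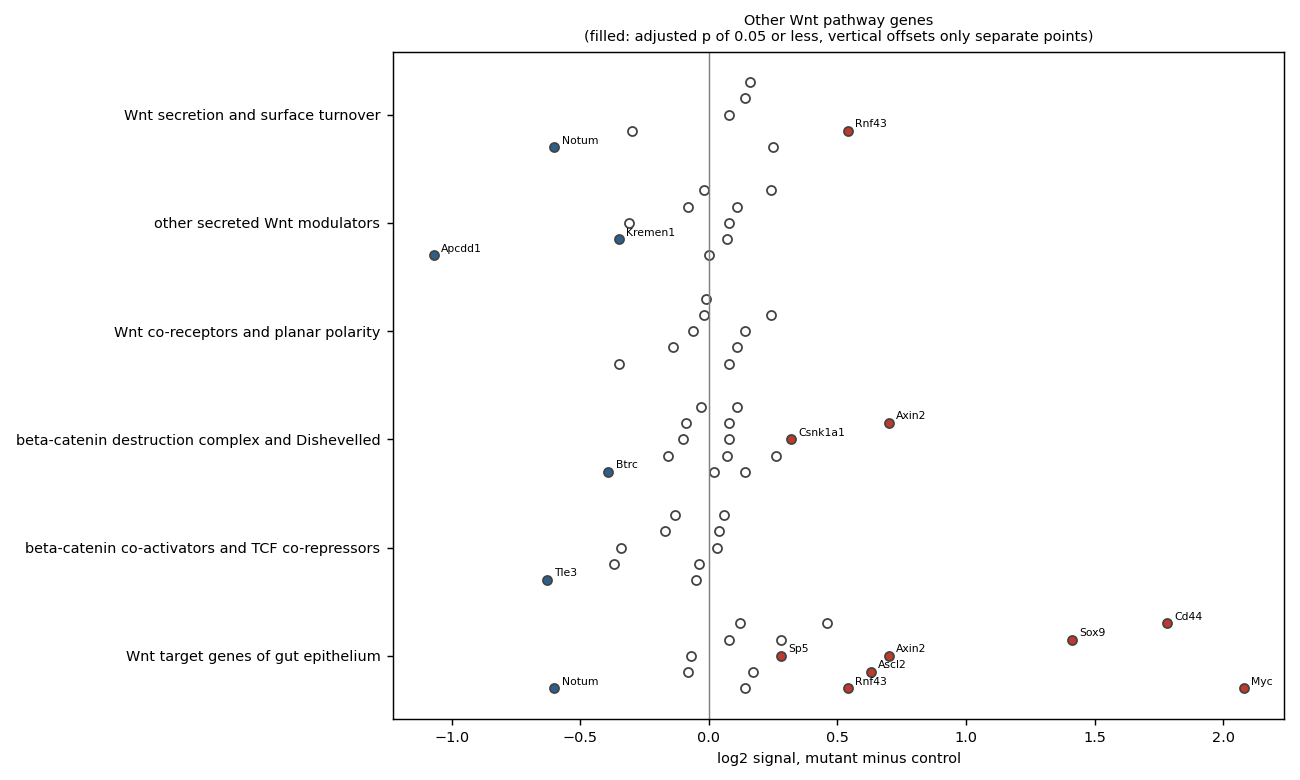
Change of 61 other Wnt pathway genes, mutant minus control log2 signal, by list, with a gene drawn once in each list that holds it; filled points have an adjusted p of 0.05 or less and are named. The target genes reach farthest to the right, with *Myc* (2.08), *Cd44* (1.78) and *Sox9* (1.41), and *Apcdd1* (−1.07) lies farthest to the left.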

How the data were processed

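Villi of 3 mutant and 3 control replicates were profiled on Affymetrix whole-transcript arrays, 1 per replicate. The authors deposited log2 signals rounded to 0.01, 1 for each of 30177 probe sets and array; for background correction, summarisation and normalization the method is not given in the sources used, and the depth of a signal over background is unknown. The number of arrays limits the precision. GEO's platform annotation gave 21789 probe sets a single symbol, 1621 several and 6767 none. Of those with a single symbol, 21698 were matched in RefSeq by Entrez ID. Probe sets without a single symbol stayed in the fit and named no gene.

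Values were fitted as deposited with limma 3.58.1 in R 4.3.3 (lmFit and eBayes, genotype as the only term, prior of 3.92 degrees of freedom) and adjusted by Benjamini-Hochberg over all probe sets; confidence intervals are at 95%. The script was tested on simulated data. Members, gene lists and marker lists were chosen with earlier results of these data known. Values per array are given for called members and for up to 3 members per role with the highest mean; other members given by array, and *Ndp*, *Wls*, *Ccnd1* and *Lgr5*, were chosen after their values were seen. Motifs were searched in RefSeq promoters of GRCm38.p6. In all, 17 alternatives were run. No sample was left out.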

Additional observations from a re-analysis of the deposited data

How the results depend on the processing

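*Tcf7l2*, *Wnt2b* and *Fzd4* were called in the same direction in all 16 alternatives that refitted the model or exchanged probe sets. Their changes were 0.65 to 0.90, 0.41 to 0.66 and −1.02 to −0.85. These members and *Lef1* have 1 probe set each, so the exchange of probe sets could not alter their calls. *Lef1* was called in 8 of 15, and besides the arrays named above it was lost with each array centred on its median (0.34, adjusted p = 0.0634) and with an offset of 32 on the linear scale (0.23, adjusted p = 0.0512); it was left out with the dim probe sets. The number of members called and changed at least 2-fold, 0 in the report, was 1 (*Fzd4*) with each array centred on its median, 0 to 1 when single arrays were left out (1 without mutant replicate 3), and 2 (*Tcf7l2* and *Fzd4*) at a fold change of 1.5. The count of all probe sets called, 5088, fell to between 3249 (without mutant replicate 2) and 4385 when single arrays were left out, with 3336 without control replicate 2. The members' median change ran from −0.02, with each array centred on its median, to 0.07. Reading *Wnt4* from its dimmer probe set made it a call, as given above. Same-numbered replicates correlated by 0.174, 0.039 and 0.119 in their deviations from the group means. Such low positive values cannot decide whether the numbers pair littermates. With the replicate number as a block the same 4 members and 4957 probe sets were called. In that fit *Rnf43* and *Sp5* were not called (adjusted p = 0.0538 and 0.0636). The cause of these shifts was not tested, beyond the fewer arrays in the fits that left 1 out. Of the results compared with their alternatives, 720 kept their side of the threshold or their value, 39 moved, 31 lost and 1 gained a call, and none reversed.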

Other observations

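All 4 goblet cell markers were lower in mutant villi (median change −2.74). *Muc2*, the main gut mucin, was at 8.98 ± 0.10 in mutant villi and 11.67 ± 0.02 in control villi (SD, n = 3 each). By qPCR of whole duodenum at P5, a tissue unlike these villi, the study found *Muc2* not altered and *Lyz1* higher. Of 4 Paneth cell markers, *Lyz1* and *Mmp7* were higher and *Defa24* and *Itln1* were lower. Of 6 enteroendocrine and tuft cell markers, *Chga*, the granin of hormone cells, was higher by 0.41 and 5 did not pass the test. Of 4 markers of enteric neurons and glia, *S100b* was lower by 2.06 on the log2 scale and the other 3 did not pass the test.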
